A study of Mus musculus with 6 samples.

Results

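C/D box small nucleolar RNAs (snoRNAs) were taken as all rows of the count table whose gene symbol starts with Snord. There were 106 such genes among 40413 in the table. The table holds estimated counts from RNA sequencing of N2A-A5 cells, a derivative of the mouse neuroblastoma line Neuro-2a that the labels call acceptor cells. The 0 h group was undifferentiated N2A-A5 kept in medium with 10% fetal bovine serum and blasticidin, with treatment given as none. The 96 h group was the same line after 96 h in differentiation medium with 1% serum, 10 µM retinoic acid and no blasticidin. Serum, retinoic acid, blasticidin and time therefore changed together and cannot be told apart. Each group had 3 libraries, described as biological replicates of the 1 line, and the 0 h cells were not kept for 96 h in control medium. RNA was extracted on a silica column kit, ribosomal RNA was depleted, and stranded total RNA libraries were made.

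C/D box snoRNAs are short nucleolar RNAs that carry the conserved boxes C and D near their ends, fold these into a kink-turn and bind the proteins Snu13, Nop56, Nop58 and the methyltransferase fibrillarin (Fbl). Most guide 2′-O-methylation of ribosomal RNA, and a few, such as U3, U8, U13, U14 and U22, act in the processing of the ribosomal RNA precursor. In mammals most are cut out of introns of host genes, many of which encode ribosomal or nucleolar proteins, or are long noncoding RNAs whose exons carry no known protein, whereas U3, U8 and U13 have promoters of their own.

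Sequences of 103 of the 106 genes were found by symbol among the GENCODE M21 transcripts (GRCm38). Of these, 69 held the box C letters TGATGA within their first 25 bases and 102 held the box D letters CTGA within their last 25 bases, read on the sense strand only. The same search of the 40 Snora genes, which are H/ACA box snoRNAs and work with other proteins, found 0 and 5. The names in the table thus mark RNAs whose ends carry the C/D letters in 67% and 99% of the sequences, against 0% and 12.5% of the Snora sequences. In the sequences printed here, written 5′ to 3′ as DNA, capitals mark a TGATGA match, where there is one, and the last CTGA. The first set is shown because these RNAs act in precursor processing or had large rises. Snord3b1 stands for 4 U3 genes with identical sequence, and Snord14c and Snord14d are shown because they share 97.67% of their bases.
Snord3a: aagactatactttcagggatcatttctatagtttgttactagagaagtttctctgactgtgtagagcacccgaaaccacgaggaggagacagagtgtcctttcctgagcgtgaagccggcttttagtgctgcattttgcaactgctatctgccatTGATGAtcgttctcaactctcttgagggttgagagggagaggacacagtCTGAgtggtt
Snord3b1: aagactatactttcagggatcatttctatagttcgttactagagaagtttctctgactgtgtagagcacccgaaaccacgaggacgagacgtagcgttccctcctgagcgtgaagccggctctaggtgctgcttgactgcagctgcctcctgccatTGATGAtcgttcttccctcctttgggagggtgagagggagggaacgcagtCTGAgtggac
Snord118: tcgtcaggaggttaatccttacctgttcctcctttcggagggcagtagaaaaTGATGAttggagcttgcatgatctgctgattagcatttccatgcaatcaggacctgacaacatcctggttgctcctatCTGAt
Snord14c: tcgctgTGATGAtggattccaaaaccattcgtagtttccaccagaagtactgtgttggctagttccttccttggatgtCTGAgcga
Snord14d: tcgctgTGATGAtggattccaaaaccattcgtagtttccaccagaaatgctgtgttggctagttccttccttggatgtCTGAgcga
Snord22: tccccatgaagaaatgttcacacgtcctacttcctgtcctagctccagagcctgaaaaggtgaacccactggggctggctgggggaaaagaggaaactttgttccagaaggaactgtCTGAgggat
Snord17: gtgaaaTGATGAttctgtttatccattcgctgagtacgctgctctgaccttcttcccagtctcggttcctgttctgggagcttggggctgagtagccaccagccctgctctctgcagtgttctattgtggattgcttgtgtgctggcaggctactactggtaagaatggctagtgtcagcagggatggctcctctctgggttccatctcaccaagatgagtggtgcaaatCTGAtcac

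The second set holds the 4 snoRNAs of the Rpl13a introns, followed by Snord50b, whose row shares its whole sequence with another gene, Snord82, which had the smallest rise among those that passed the test, and Snord95, which did not pass.
Snord32a: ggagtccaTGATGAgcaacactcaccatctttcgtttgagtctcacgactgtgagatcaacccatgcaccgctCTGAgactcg
Snord33: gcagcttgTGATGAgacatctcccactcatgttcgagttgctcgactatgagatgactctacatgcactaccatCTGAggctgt
Snord34: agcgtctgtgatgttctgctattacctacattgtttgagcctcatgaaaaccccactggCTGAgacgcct
Snord35a: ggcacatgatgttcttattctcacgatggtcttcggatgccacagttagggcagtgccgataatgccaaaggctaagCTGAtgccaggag
Snord50b: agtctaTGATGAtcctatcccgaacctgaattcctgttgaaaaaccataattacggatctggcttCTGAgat
Snord82: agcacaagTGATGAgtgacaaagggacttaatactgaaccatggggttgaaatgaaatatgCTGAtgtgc
Snord95: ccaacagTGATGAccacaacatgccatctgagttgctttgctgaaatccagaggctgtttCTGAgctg

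Of the 106 genes, 20 had no count in any library, 34 had counts but did not reach 10 counts in 3 of the 6 columns, and 52 reached that level. The genes with no count included 13 of the 17 Snord116l genes, Snord64, Snord50a and Snord37. Those 13 and Snord50a share their whole sequence with other genes, so a row at 0 does not show that the RNA was absent. The near-identical families held 158 to 887 counts per library for Snord116l and 78 to 592 for Snord50a. The same 52 were tested by edgeR after its filter on low counts. Just inside this level, Snord23 had 5, 1 and 1 counts at 0 h and 14, 24 and 18 at 96 h. Just outside it, Snord65 had 1, 7 and 5 counts at 0 h and 4, 20 and 17 at 96 h, and Snord111 had 5, 3 and 7 at 0 h and 3, 10 and 11 at 96 h. Of the 52, 39 had at least 10 counts in every 0 h library, 9 in some of them and 4 in none. Those 4 passed through the 96 h libraries alone, and the 9 also needed 96 h libraries to reach 3 columns.

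The libraries held 16833672 to 20932343 counts. Over all 13705 genes tested, 3927 were higher and 3942 lower at 96 h (edgeR quasi-likelihood test, Benjamini-Hochberg adjusted p under 0.05), with a median log2 fold change of 0.03. Scaling by library size alone gave 2409 higher and 5849 lower and a median of -0.22. Gm26917 took 18.7% to 22.7% of the counts at 0 h and 28.7% to 31.7% at 96 h. All 11 markers of sympathetic neuroblastoma were tested, of which 9 were lower, 1 (Stmn2) was higher and 1 (Gata3) did not pass. Their summed levels were 1616 to 1661 CPM (counts scaled to a common library size by TMM, the trimmed mean of M values) at 0 h and 1091 to 1132 at 96 h. The summed levels of fibroblast markers, with Lum at 0, were 4.28 to 4.77 at 0 h and 10.5 to 12.2 at 96 h. Of these 5 genes 3 were tested, and 2 (Dcn and Pdgfra) were higher. Col1a2, not tested, had a mean of 0.302 CPM at 0 h and 0.119 at 96 h. The summed levels of endothelial markers stayed at or below 2.40, and those of leukocyte and epithelial markers, with Lyz2 and Krt18 at 0, at or below 0.891. The part of the fibroblast markers in the results was not tested.

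Together the Snord genes took a larger share of the counts at 96 h. The summed share was 0.0461%, 0.0615% and 0.0656% in the 0 h libraries and 0.201%, 0.245% and 0.190% in the 96 h libraries. Every 96 h library lay above every 0 h library. The mean rose from 0.0578% ± 0.0103 (SD, n = 3) to 0.212% ± 0.0291 (SD, n = 3), a ratio of 3.67 with a propagated SD of 0.826. No test was made of this sum.

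**Figure D1:**
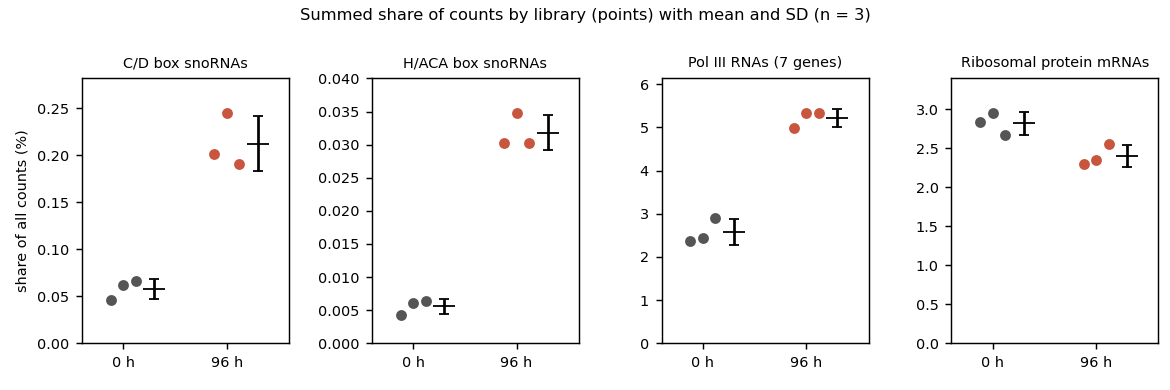
Share of all counts (%, linear axes from 0) in each library, with the mean and SD (n = 3) beside the points, for the 106 C/D box genes, the 40 H/ACA box genes, 7 RNA polymerase III transcripts and the ribosomal protein genes. The C/D share went from a mean of 0.0578% to 0.212% and the ribosomal protein share from 2.82% to 2.40%.

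Gene by gene, 50 of the 52 tested snoRNAs were higher at 96 h, 0 were lower, and Snord3b1 and Snord95 did not pass. Among all genes tested, 57.4% were called in either direction, 28.7% higher and 28.8% lower. Each of the 50 had a log2 fold change above 1, a size that 11.7% of all genes tested reached as higher calls. The count of 0 lower was also 0 at an unadjusted p under 0.05 in edgeR, and 0 with DESeq2 and with limma-voom. The median log2 fold change of the 52 was 2.03. For 49 of them the 96 h libraries all lay above the 0 h libraries, which held for 32.4% of all genes tested, and 64.1% were apart in either direction. The other three, Snord70, Snord3b1 and Snord95, overlapped. Because 4 of the 52 entered only through their 96 h counts and 9 more needed some of them, these figures describe the tested genes and not all 106. Among the 39 with 10 counts in every 0 h library, 38 were called higher. Among all 86 snoRNA genes with any count, the mean level was higher at 96 h for 83 and lower for 2. All 96 h libraries lay above all 0 h libraries for 59 and below for 0. These 86 include the 34 with few counts. The matching shares over all genes with any count were not computed, and the 32.4% above covers only genes tested.

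A log2 fold change from 1.5 to 2.5 was found for 35 of the 52, and one above 3 for 6 genes other than Snord50b: Snord23, Snord3a, Snord3b2, Snord17, Snord22 and Snord58b. Snord23 and Snord58b reached 10 counts in no 0 h library. They entered the test through their 96 h libraries alone, so the filter favoured a rise in them. The 37 snoRNAs under 100 bases had a median log2 fold change of 2.03, as did the 13 of 100 bases or more. Of the 6 genes above 3, 5 were among those 13 longer RNAs and 1, Snord58b, among the shorter. The 5 include Snord3b2, and the 13 include all 4 identical U3 rows, Snord3b1 to Snord3b4, whose separate values are uncertain. Summed with their near-identical copy, these rows had a log2 fold change of 2.30, below 3. Across the 50 with a sequence, Spearman's rho between length and log2 fold change was 0.06, a description over genes that share the same 6 libraries. The genes also moved together between replicates. Replicate 1 was the lowest library for 42 of the 52 at 0 h and for 28 at 96 h. Replicate 2 was the highest for 25 at 0 h, beside 24 for replicate 3, and for 43 at 96 h. The genes are thus not independent of each other. Silica columns are known to keep short RNA poorly, and how much was kept in each library was not measured.

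**Figure D2:**
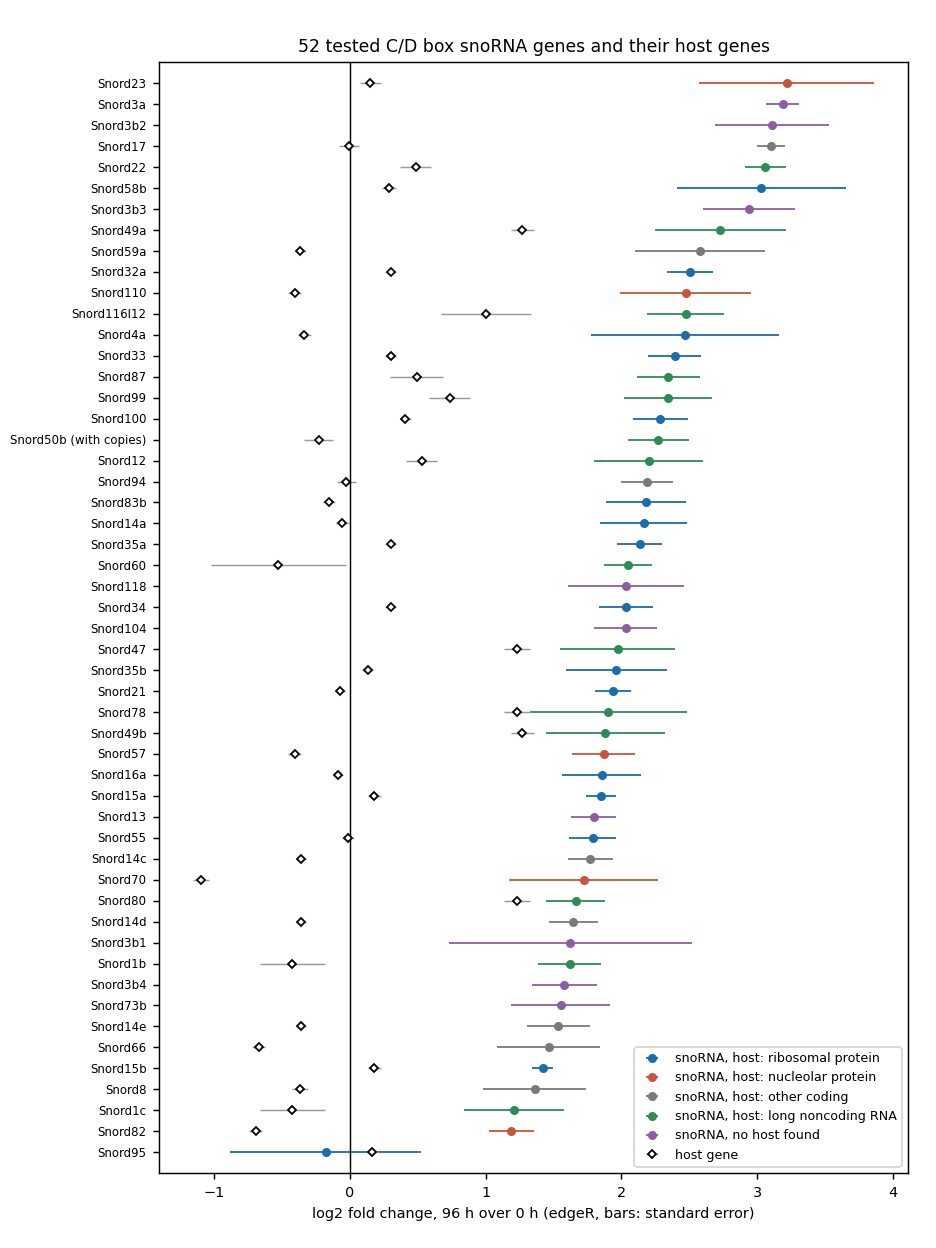
Log2 fold change at 96 h over 0 h (x axis, bars are edgeR standard errors) of the 52 tested snoRNA genes (filled circles, coloured by the kind of host gene) and of their host genes (open diamonds). The value for Snord50b is that of its 5 near-identical genes summed, 2.27. All snoRNAs except Snord95 lie to the right of 1, while the hosts lie between -1.10 and 1.27.

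The U3 snoRNA, which pairs with the ribosomal RNA precursor for the first cleavages on the way to 18S, had the most counts. Its 5 rows summed to 126, 171 and 209 CPM at 0 h and to 1013, 1079 and 724 at 96 h. The lowest 96 h library was thus well above the highest 0 h library. The means were 169 ± 41.9 (SD, n = 3) and 939 ± 189 (SD, n = 3), a ratio of 5.57. U3 took 31.7% of all Snord counts at 0 h and 40.2% at 96 h, a share of counts that is not divided by length.

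Snord3a, the U3 gene whose sequence differs from the others, stood at 19.1, 29.8 and 27.8 CPM at 0 h and at 251, 241 and 210 at 96 h. The groups were far apart, and the log2 fold change was 3.19 ± 0.12 (SE, edgeR adjusted p = 1.54e-10), or 9.11-fold. Its counts were fractional in 5 of the 6 libraries, so this value also depends in part on how shared reads were divided. Snord3b1, Snord3b2, Snord3b3 and Snord3b4 are identical, so reads cannot be assigned among them and their separate values are uncertain. Snord3b1 showed this with levels of 23.9, 41.7 and 33.0 at 0 h and 264, 44.9 and 0 at 96 h. Its row was at 0 in the same library, 96 h replicate 3, in which Snord3b2 stood at 244. Its own log2 fold change was 1.62 ± 0.90 (edgeR adjusted p = 0.139). With the 4 rows and Gm24949, a gene 95.37% identical to them, summed before the fit, the levels were 106, 142 and 181 at 0 h and 763, 839 and 515 at 96 h. The summed family rose without overlap, by a log2 fold change of 2.30 ± 0.18 (edgeR adjusted p = 5.87e-08).

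**Figure D3:**
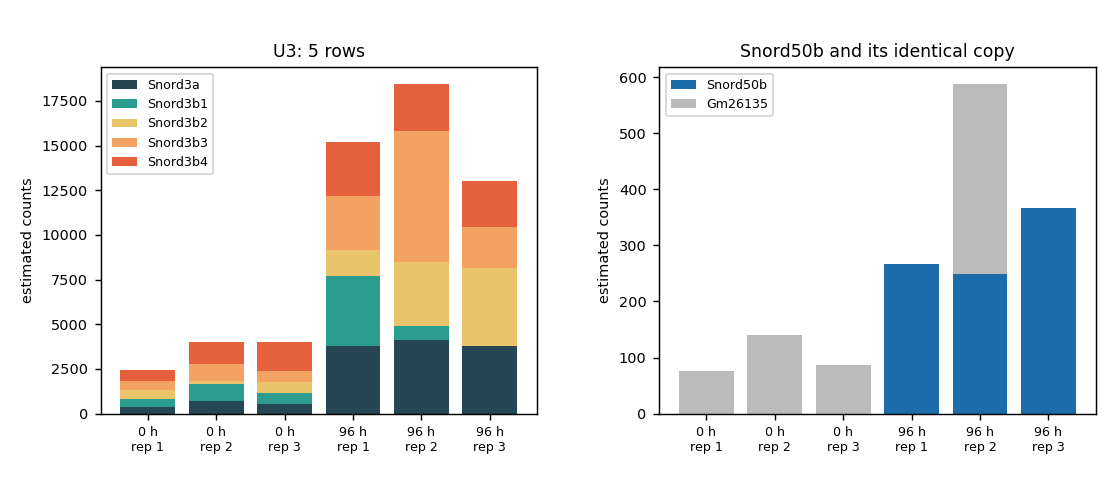
Estimated counts in each library (bars, linear axes from 0), stacked by row, for the 5 U3 rows (left) and for Snord50b with its identical copy Gm26135 (right). The division among identical rows differed between libraries while each 96 h total exceeded every 0 h total.

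The other snoRNAs of precursor processing rose too. Snord118 (U8), which is needed for 5.8S and 28S maturation, had few counts, at 0.310, 0.937 and 1.72 CPM at 0 h and 4.0, 5.03 and 3.17 at 96 h. The groups did not overlap and the log2 fold change was 2.03 ± 0.43 (edgeR adjusted p = 0.00108), or 2.64 without 0 h replicate 3. Snord13 (U13), which pairs with 18S and is needed for its acetylation, stood at 12.9, 16.3 and 20.6 at 0 h and 47.6, 73.1 and 52.1 at 96 h. It rose by 1.80 ± 0.16 on the log2 scale (edgeR adjusted p = 5.64e-07), and its 96 h libraries lay above the others.

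Snord14 (U14) acts in 18S processing and also guides a methylation of 18S. Snord14c and Snord14d, which lie in introns of the chaperone gene Hspa8, summed to 45.3, 59.6 and 63.6 CPM at 0 h and 152, 249 and 151 at 96 h, again without overlap. The pair rose by 1.71 ± 0.17 on the log2 scale (edgeR adjusted p = 6.77e-07). Snord14e of the same host rose by 1.53 ± 0.23, and Snord14a, which lies in Rps13, by 2.16 ± 0.32. The mRNA of Hspa8 was lower at 96 h, with a log2 fold change of -0.36 ± 0.04, and that of Rps13 did not pass (-0.06 ± 0.05, edgeR adjusted p = 0.331).

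Snord22 (U22), also needed for 18S, is cut from an intron of Snhg1, a noncoding host. It stood at 5.63, 9.79 and 10.3 CPM at 0 h and 75.4, 76.9 and 63.2 at 96 h, so the groups were well apart. Its log2 fold change was 3.06 ± 0.15 (edgeR adjusted p = 1.64e-09), against 0.49 ± 0.11 for Snhg1. Snord17, a methylation guide for 28S in an intron of the sorting nexin gene Snx5, stood at 10.1, 12.8 and 14.8 at 0 h and 117, 105 and 102 at 96 h. No library of one group came near those of the other, and it rose by 3.10 ± 0.10 (edgeR adjusted p = 5.10e-11), or 8.58-fold. Snx5 itself did not pass, with a log2 fold change of -0.00 ± 0.07 (edgeR adjusted p = 0.971).

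**Figure D4:**
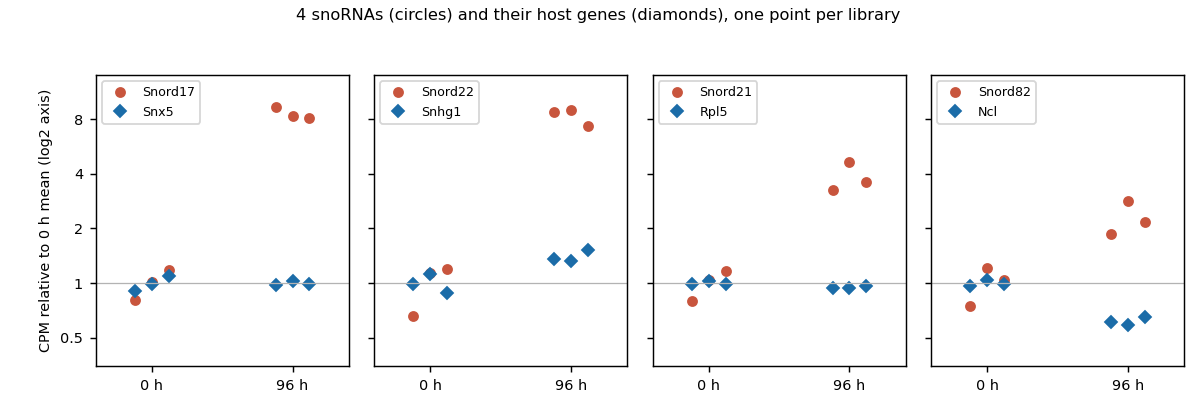
CPM relative to the mean of the 0 h libraries (log2 axis), 1 point per library, for Snord17, Snord22, Snord21 and Snord82 (circles) and their hosts Snx5, Snhg1, Rpl5 and Ncl (diamonds). The 4 snoRNAs rose by log2 fold changes of 3.10, 3.06, 1.94 and 1.19, while Ncl was lower (-0.69).

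Snord23 and Snord58b had large fold changes on few counts. Both were among the 4 tested genes with 10 counts in no 0 h library. Such genes pass the filter only if they are high at 96 h, so their rises and p-values are favoured by it. Snord23, in an intron of the nucleolar protein gene Nop53, stood at 0.258, 0.0426 and 0.0522 CPM at 0 h and 0.932, 1.4 and 1.0 at 96 h. The groups did not overlap, and the log2 fold change was 3.22 ± 0.64 (edgeR adjusted p = 0.000715). Without 0 h replicate 1 it was 4.38. Snord58b, in Rpl17, stood at 0.155, 0.341 and 0.104 at 0 h and 0.866, 3.10 and 1.22 at 96 h, and rose by 3.03 ± 0.62 (edgeR adjusted p = 0.000881). This was 2.31 without 96 h replicate 2 and 3.66 without 0 h replicate 2.

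Snord50b, a guide from the noncoding host Snhg5, had the largest fitted change of all 13705 genes, and its row alone does not give its size. The row held 0 counts in each 0 h library and 266, 248 and 366 at 96 h. Gm26135, whose 72 bases are identical to it, held 76.0, 140 and 86.9 counts at 0 h and 0, 340 and 0 at 96 h. The counts of one row were thus at 0 in 5 of the 6 libraries where the other had them. Summed, the rows gave 76.0, 140 and 86.9 counts at 0 h and 266, 588 and 366 at 96 h. With Snord50a and the other near-identical genes added, 5 in all, the family rose by 2.27 ± 0.22 on the log2 scale (edgeR adjusted p = 8.58e-07), or 4.83-fold, close to the median of the other snoRNAs. Snhg5 did not pass (-0.23 ± 0.11, edgeR adjusted p = 0.0855).

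Snord15a and Snord15b, 28S guides in introns of Rps3, had many counts in both groups. Snord15a stood at 40.0, 44.8 and 61.0 CPM at 0 h and 179, 171 and 174 at 96 h. Its groups did not overlap and it rose by 1.85 ± 0.11 on the log2 scale (edgeR adjusted p = 8.74e-09). Snord15b stood at 63.0, 65.8 and 79.1 at 0 h and 177, 199 and 180 at 96 h, and rose by 1.42 ± 0.08 (edgeR adjusted p = 3.94e-09). At 0 h the level of Snord15b was above that of Snord15a in each library, and at 96 h they were alike in size, on RNAs of 145 and 148 bases. Snord21, in Rpl5, stood at 25.2, 32.9 and 36.8 at 0 h and 103, 147 and 114 at 96 h. It rose without overlap by 1.94 ± 0.13 (edgeR adjusted p = 3.30e-08), and Rpl5 did not pass (-0.07 ± 0.04, edgeR adjusted p = 0.117).

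The 4 snoRNAs of Rpl13a, which lie in separate introns of 1 ribosomal protein gene and are known for a role in metabolic stress, all rose. Snord32a stood at 3.31, 4.51 and 3.6 CPM at 0 h and 19.4, 27.0 and 18.8 at 96 h. Snord33 stood at 4.85, 9.16 and 7.99 at 0 h and 29.4, 47.5 and 39.4 at 96 h. For each of the 4 the groups were apart. The log2 fold changes were 2.50 ± 0.17 for Snord32a, 2.39 ± 0.20 for Snord33, 2.03 ± 0.20 for Snord34 and 2.13 ± 0.16 for Snord35a. Rpl13a itself was higher by 0.30 ± 0.04 (edgeR adjusted p = 2.84e-05). Differences among the 4 snoRNAs were not tested.

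At the lower end, Snord82, in an intron of the nucleolin gene Ncl, stood at 11.0, 17.9 and 15.3 CPM at 0 h and 27.4, 41.7 and 31.9 at 96 h. It rose without overlap by 1.19 ± 0.16 (edgeR adjusted p = 3.09e-05), while Ncl was lower by the same fit (-0.69 ± 0.05). Snord1c, Snord8, Snord15b and Snord66 followed, with log2 fold changes of 1.21, 1.36, 1.42 and 1.46. The call of Snord1c was lost without 0 h replicate 1 (edgeR adjusted p = 0.055) or 96 h replicate 2 (adjusted p = 0.109), and that of Snord8 without 96 h replicate 2 (adjusted p = 0.0697). Snord1c is 97.37% identical to Snord1b, so its separate value is uncertain. Summed with Snord1b and Gm24253, the family rose by 1.58 ± 0.22 (edgeR adjusted p = 2.46e-05). Snord95, in Rack1, stood at 0.0516, 0.554 and 1.1 at 0 h and 0.466, 0.643 and 0.390 at 96 h. The groups overlapped, and its log2 fold change of -0.18 ± 0.70 did not pass (edgeR adjusted p = 0.844). Without 0 h replicate 3 it was 0.64 (edgeR adjusted p = 0.515). Its error is wide enough that a change of the size of the others' smallest rises lies within 2 SE.

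Snord116, the imprinted repeat family of the Prader-Willi region, has no known ribosomal RNA target. Snord116l12 was the tested member of the imprinted clusters, at 1.24, 1.53 and 0.627 CPM at 0 h and 6.46, 6.78 and 5.96 at 96 h. The groups did not overlap and it rose by 2.47 ± 0.28 on the log2 scale (edgeR adjusted p = 5.45e-06). Its near-identical family of 70 genes, 17 of them named Snord116l, summed to 158, 248 and 186 counts at 0 h and 550, 887 and 779 at 96 h. That sum rose by 2.21 ± 0.13 (edgeR adjusted p = 3.67e-09). The host Snhg14 was higher by 1.00 ± 0.33 (edgeR adjusted p = 0.0198), a call that was lost without 0 h replicate 3 (adjusted p = 0.0595), 96 h replicate 2 (adjusted p = 0.0574) or 96 h replicate 3 (adjusted p = 0.0939).

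A host gene was found for 43 of the 52, in 32 genes. Of these hosts 13 were higher, 9 lower and 10 did not pass, beside 28.7% higher and 28.8% lower among all genes tested. Their log2 fold changes ran from -1.10 for Nop58 to 1.27 for 2410006H16Rik. Scaling by library size alone gave 4 hosts higher and 17 lower, beside 2409 higher and 5849 lower of all 13705 genes tested. The higher calls of Snhg1, Snhg14 and Rpl17 were then lost, and Snx5, Rpl5, Rps13 and Snhg5 were called lower. Each tested snoRNA kept its direction under every scaling tried. The 16 snoRNAs in 12 ribosomal protein genes had a median log2 fold change of 2.08, and those hosts one of 0.06. The 5 in nucleolar protein genes had a median of 1.87 against -0.55 for their 4 hosts. The 8 in other coding genes had a median of 1.71 against -0.36 for 6 hosts, and the 14 in long noncoding RNAs one of 2.12 against 0.51 for 10 hosts. The medians of the snoRNAs thus differed little between kinds of host whose own medians lay on both sides of 0. The 9 with no host found, among them U3, U8 and U13, had a median of 2.03. Across the 43 pairs, which share libraries and in part hosts, Spearman's rho between the log2 fold changes of snoRNA and host was 0.38 and Pearson's r was 0.02, or 0.41 and 0.26 without Snord50b.

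The ratio of snoRNA to host within a library does not depend on scaling between libraries. It was higher in all 96 h than in all 0 h libraries for 38 of the 43 pairs, lower for 0 and overlapping for 5. The same held for 100% of 20 H/ACA snoRNAs with a host, so this is not particular to the C/D class. The median change of the log2 ratio was 1.98. For Snord17 over Snx5 the log2 ratio was -2.08, -1.87 and -1.81 at 0 h and 1.35, 1.12 and 1.12 at 96 h. The 5 overlapping pairs were Snord47, Snord78 and Snord80 in Gas5, Snord49b in 2410006H16Rik and Snord95 in Rack1. Gas5, a noncoding host with a terminal oligopyrimidine start, rose by 1.23 ± 0.10 (edgeR adjusted p = 1.20e-07), and its Snord80 by 1.66 ± 0.22 (edgeR adjusted p = 1.91e-05). Their log2 ratio was -1.49, -0.86 and -0.68 at 0 h and -0.96, -0.11 and -0.65 at 96 h. For 22 of the tested snoRNAs the sequence also lies inside a longer annotated transcript of the host, and in total RNA libraries reads from the mature snoRNA and from unspliced host RNA cannot be told apart.

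Most mRNAs on 3 lists, of core, assembly and maturation proteins for C/D particles, were lower at 96 h. Of 28 genes for core, assembly and maturation proteins, 22 were lower, 0 were higher and 6 did not pass, beside 28.8% lower and 28.7% higher among all genes tested. The 6 were Ruvbl2, Pih1d1, Znhit3 and Zfp593 of the 9 assembly genes, and Tgs1 and Parn of the 15 maturation genes. By list, 4 of 4 core, 5 of 9 assembly and 13 of 15 maturation genes were lower. With library size alone 27 were lower, beside 5849 of all 13705 genes tested. Under the other scalings 21 to 22 were lower, beside 3342 to 3979 of all genes tested. In the main fit the median log2 fold change of the 28 was -0.40. Fbl, the methyltransferase of the particle, stood at 123, 125 and 131 CPM at 0 h and at 69.7, 80.2 and 83.5 at 96 h. It fell without overlap by 0.70 on the log2 scale (SE 0.06, edgeR adjusted p = 6.84e-07). Nop58, which scaffolds the particle and hosts Snord70, stood at 174, 186 and 164 at 0 h and at 80.4, 79.2 and 85.6 at 96 h, with a log2 fold change of -1.10 ± 0.06 (edgeR adjusted p = 2.53e-09). Nop56 and Snu13, the other core proteins, were lower as well, by -0.41 ± 0.05 and -0.87 ± 0.05. The largest change of the list was that of Larp7 (-1.23 ± 0.08), which binds 7SK and joins C/D guides to U6 RNA. Of the assembly proteins, the ATPase Ruvbl1 was lower (-0.40 ± 0.05) and its partner Ruvbl2 did not pass (-0.10 ± 0.07, edgeR adjusted p = 0.229).

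Other short noncoding RNAs moved with the C/D class. All 23 tested H/ACA snoRNAs were higher, with a median log2 fold change of 2.82 and a ratio of 5.67 between their summed shares. All 4 tested Cajal body RNAs were higher (median 1.80), and so were 100 of 108 annotated snoRNAs listed under other names (median 2.33). The 7 RNA polymerase III transcripts were all higher, with a median log2 fold change of 1.30, and took 2.57% of the counts at 0 h and 5.22% at 96 h. Of 77 ribosomal protein genes, 27 were higher and 20 lower, with a median of 0.04, beside 28.7% higher and 28.8% lower over all genes tested. The rise of the C/D class and a general gain of short noncoding RNA in the 96 h libraries cannot be told apart.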

How the data were processed

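Total RNA of 6 N2A-A5 cultures was sequenced in paired reads. The authors deposited 1 table of estimated counts per gene. Salmon 1.10.1, DESeq2 1.52.0, FastQC 0.12.1 and the build mm39 are named in the submitters' processing notes. The role of each tool is not given in the sources used here. Fractional estimated counts were found in 15 of the 52 tested members (tolerance 0.0011). These deposited counts were rounded and fitted in R 4.3.3 with edgeR 4.0.16 (filterByExpr, TMM, quasi-likelihood F test, 3 against 3 libraries, no covariate), with Benjamini-Hochberg adjustment over 13705 genes and a threshold of 0.05. The fit was tested on simulated data. Levels are TMM-scaled CPM. Ratios to hosts used 0.5 added counts. Genes at least 95% identical to a member, up to 300 bases long, were also summed to 1 row per family before a further fit. No 2 replicates agreed within sampling noise (chi-square per degree of freedom 6.79 to 13.9).

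Sequences and hosts were matched by symbol to GENCODE M21 (GRCm38), another build than that of the counts, so no coordinates are given. Snord3a and Snord3b1 to Snord3b4 were matched there under the Rnu3 names, and hosts the annotation lists under older symbols by hand. The members and gene lists were chosen with earlier results of these data known. Any member could be named. Full values went to the 10 with the highest mean level, the 8 with the largest rise, those of precursor processing, the imprinted clusters, their hosts and the snoRNP genes, and Snord21, Snord82, Snord95 and the snoRNAs of Rpl13a and Gas5 were added after their values were seen. Alternatives were other scalings and filters, the DESeq2 1.42.0 Wald test, limma-voom (limma 3.58.1), a replicate block, an adjusted p of 0.01, other totals for the share and leaving out each library.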

Additional observations from a re-analysis of the deposited data

How the results depend on the processing

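The number of snoRNAs called higher was 50 of 52 under the scalings tried, with DESeq2 and with limma-voom. Over all 13705 genes tested, 2409 to 4526 were higher in these fits. The snoRNA number was also 50 of 52 with the stated minimum of 10 counts in 3 columns as the filter, beside 3925 of 13823 genes. It was 47 of 52 at an adjusted p of 0.01, beside 3004 of 13705 genes. When 1 library was left out it was 47 to 53, with 52 to 59 snoRNAs tested. Those fits called 3458 to 3796 genes higher, of 13985 to 14222 tested. With near-identical copies summed, which was chosen after seeing the data, the snoRNA number was 46 of 47, beside 3920 of 13693 genes. With no filter it was 60 of 85, beside 4070 higher of 26399 genes. That fit gave Snord3b1 an edgeR adjusted p of 1.76e-119, against 0.139 in the main fit. The 96 h levels of Snord3b1 were 264, 44.9 and 0, so the fit with no filter is not a check on the other calls. No snoRNA was called lower in any of these fits. Leaving out 0 h replicate 1 lost the calls of Snord1c, Snord70 and Snord78. Leaving out 0 h replicate 2 lost Snord70 and Snord78, leaving out 96 h replicate 2 lost Snord1c, Snord70 and Snord8, and leaving out 96 h replicate 3 lost Snord70. The median log2 fold change ran from 1.78 with library size alone to 2.11 with upper-quartile factors, and from 1.82 to 2.17 with 1 library left out. The ratio of summed shares was 3.49 to 4.39 under other totals and members and 3.34 to 3.94 with 1 library left out.

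Signs changed for a few hosts and for Snord3b1. With library size alone Rps3 was at -0.072 and Nop53 at -0.099. With upper-quartile factors Rps13 was at 0.026, Snx5 at 0.078 and Rpl5 at 0.0069. Snx5 was at 0.034 with TMM factors from genes without small RNA, at 0.0023 with limma-voom, and between -0.078 and 0.061 with 1 library left out, above 0 without 0 h replicate 3 or 96 h replicate 1. Snord3b1 was at -2.61 with limma-voom and from -0.58 to 2.21 with 1 library left out. The lowest of these came without 96 h replicate 1, which held most of its counts. Snord3b1 passed the threshold without 96 h replicate 3 and in the fit with no filter. Snord95, which did not pass, changed sign with limma-voom, the block and without 0 h replicate 3. Other causes were not tested. Library size alone cut the genes called higher from 3927 to 2409.

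Over all genes tested, the replicate numbers did not pair the libraries. Deviations from the group means correlated at -0.01, 0.01 and -0.00 for numbers 1, 2 and 3, and only number 2 matched its own number best. Among the 52 snoRNAs, replicate 1 was most often the lowest in both groups and replicate 2 most often the highest. With the replicate block 50 of 52 snoRNAs were higher, 0 lower, and their median was 2.01. Over all 13705 genes tested, that fit called 3854 higher and 3858 lower.

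Depth limits the 34 snoRNAs below 10 counts in 3 columns. None of them had more than 59.9 counts over the 6 libraries, so single values of them are imprecise.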
